A study of Mus musculus with 20 samples.

Results

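The unfolded protein response of the endoplasmic reticulum (ER) was followed through 10 of its genes, Hspa5, Hsp90b1, Dnajb9, Sdf2l1, Calr, Pdia4, Pdia6, Creld2, Herpud1 and Xbp1, in 2 mouse hypothalamic cell lines exposed to serotonin. The genes were given as a list, and each was measured through probe sets annotated to that gene alone. This left 9 of the 10, among 18820 genes tested in all. The probe set of Pdia4 also carries the symbol Mir704 and gives no value here. Each of the 9 had 1 probe set.

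The ER is where secreted and membrane proteins fold. When unfolded proteins accumulate, the ER membrane sensors IRE1, ATF6 and PERK start the unfolded protein response: IRE1 splices the mRNA of the transcription factor XBP1, ATF6 is cut to release a transcription factor, and PERK slows translation while favouring that of ATF4. ATF6 and spliced XBP1 are known to raise chaperones, folding enzymes and factors that send misfolded proteins to degradation, in part through a promoter motif called the ER stress response element (ERSE). ATF4 acts on amino acid, redox and stress genes and can also be raised by other stresses than those of the ER. Neuroendocrine cells make peptide hormones through the ER and so depend on this folding capacity.

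The lines were mHypoE-46 (E46), described by the labels as responding to serotonin, and mHypoA-2/12 (A2/12), described as not responding. Both are immortalised mouse hypothalamic lines, E46 from embryonic and A2/12 from adult tissue. Total RNA was measured on 20 arrays in 5 groups of 4: E46 given serotonin labelled 100 µg/ml, E46 given serotonin labelled 1 µg/ml, E46 controls, A2/12 given serotonin labelled 100 µg/ml, and A2/12 controls. All cells were placed in serum-free medium before a 24 h exposure. The dose of the E46 serotonin arrays is given differently in a second label, where the dose of 1 stands for arrays with 100 in the title and the reverse, so the doses below are those of the titles. No label says that the 4 arrays of a group were separate cultures, so every p-value reflects the spread among these arrays, which may be technical. In RNA from whole cultures, fewer cells of a kind and less RNA per cell cannot be told apart.

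Values are log2 expression levels (RMA, a summary of the probes of a probe set), which order a gene's groups but not different genes. Changes are log2 differences ± SE from limma fitted to all 18820 genes, and a gene was called at a Benjamini-Hochberg adjusted p below 0.05. The correlation between any pair of arrays was 0.933 to 0.998. Levels up to 4.35 to 4.66, depending on the group, held 95% of 1155 odorant and pheromone receptor genes and were taken as background, and the 9 genes lay above it in every group. Of 14 neuron markers, 8 lay above background in both control groups, while Snap25, Rbfox3, Nefl, Nefm, Dcx and Elavl4 of the same list did not. Of 9 fibroblast and mesenchyme markers, of which Thy1 is on the neuron list too, 8 lay above background in every group. The mean of those 9 markers on an array was 7.11 to 7.83 in E46 labelled 100, against 8.90 to 9.07 in E46 controls, and 7.32 to 7.94 in A2/12 labelled 100, against 9.70 to 9.82 in A2/12 controls. In E46, 0 of the 9 were called higher and 8 lower, and in A2/12, 1 was called higher and 6 lower. Of 8 astrocyte markers, 1 was called higher and 5 lower in E46 labelled 100 (median −0.40), and 0 higher and 5 lower in A2/12 labelled 100 (median −0.36). Of these 8, 6 lay above background in E46 controls and 5 in E46 labelled 100. In A2/12, 4 lay above background in controls and 3 at the labelled 100. Gfap and Aqp4 were not above background in any group. Of the 14 neuron markers, 0 were called higher and 4 lower in E46 labelled 100, and 1 higher and 5 lower in A2/12 labelled 100. Beside these marker counts, 20.3% of all genes were called higher and 19.3% lower in E46, and 24.8% and 21.1% in A2/12. The part of these markers in the results below was not tested. A row letter of the array position in the labels largely goes with the groups. Rows B, C and F each hold arrays of more than 1 group, and no row holds both lines. Row can thus be told apart from treatment only in part, and not from the line, and its part was not tested. Arrays with the position numbers 5, 7 and 9 occur in every group.

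The promoters of the 10 genes are given first, since the ERSE is the sequence that joins several of them as a set. They were searched after the changes had been computed. RefSeq windows of 300 bases (250 before to 50 after the annotated start, build GRCm38.p6) were found for all 10. The ERSE was searched as CCAAT, 9 bases of any kind and CCACG, on both strands. It was present in 5 of the 10 genes, Hspa5, Hsp90b1, Calr, Pdia6 and Creld2, and in 0.119% of 32851 promoter windows. The shorter ERSE-II, ATTGG, 1 base and CCACG, was present in Herpud1 and in 0.0365% of windows. The motifs are printed 5′ to 3′ on the strand that carries them, with both fixed parts in capitals and the spacer in lower case, because genes with the same element are set against each other below.
Hspa5 ERSE, chr2:34772025-34772043, plus strand: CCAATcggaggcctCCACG
Hsp90b1 ERSE, distal, chr10:86705638-86705656, minus strand: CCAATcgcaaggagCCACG
Hsp90b1 ERSE, proximal, chr10:86705533-86705551, plus strand: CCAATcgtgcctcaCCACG
Calr ERSE, chr8:84847075-84847093, plus strand: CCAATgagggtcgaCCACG
Pdia6 ERSE, chr12:17266491-17266509, plus strand: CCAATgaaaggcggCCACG
Creld2 ERSE, chr15:88819520-88819538, minus strand: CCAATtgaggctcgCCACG
Herpud1 ERSE-II, chr8:94386377-94386387, plus strand: ATTGGgCCACG

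Hsp90b1 held 2 such elements, and the 9 spacer bases differed among the elements. The UPRE core TGACGTG, a site described for XBP1 and ATF6, was present in Hspa5 and in 2.01% of windows. The composite C/EBP-ATF site TGATGCAAT was in 0 of the 10 genes and in 0.192% of windows. The CCAAT box, which is also the first part of the ERSE, was present in 9 of the 10, all but Xbp1, and in 37.4% of windows. A match describes letters in a window and says nothing of what binds there.

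**Figure D1:**
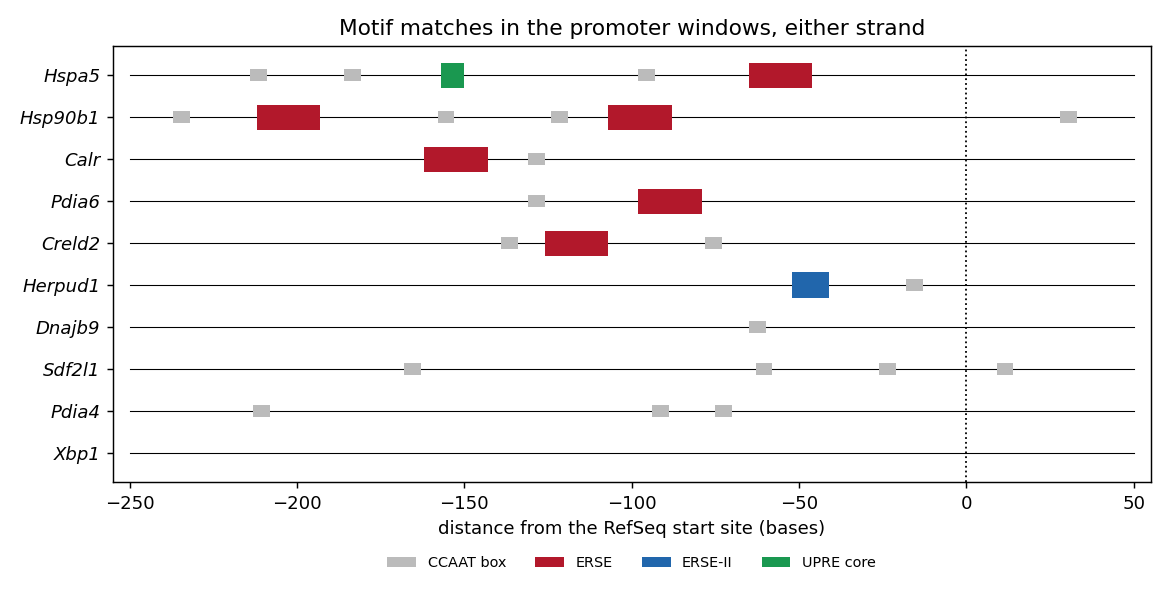
Motif matches in the promoter windows of the 10 genes by distance from the RefSeq start in bases (horizontal axis), 1 row per gene. ERSE matches stand in Hspa5, Hsp90b1 (2 matches), Calr, Pdia6 and Creld2, an ERSE-II match in Herpud1 and a UPRE core match in Hspa5.

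The whole windows of Hspa5, Herpud1 and Creld2 are given because Hspa5 and Creld2 hold the same element and changed in opposite directions, while Herpud1 holds the shorter one and changed in E46. They are written along the plus strand, with the fixed parts of the ERSE or ERSE-II and the UPRE core in capitals. In Creld2 the element runs on the other strand and appears as its reverse complement.
Hspa5, chr2:34771840-34772139, plus strand: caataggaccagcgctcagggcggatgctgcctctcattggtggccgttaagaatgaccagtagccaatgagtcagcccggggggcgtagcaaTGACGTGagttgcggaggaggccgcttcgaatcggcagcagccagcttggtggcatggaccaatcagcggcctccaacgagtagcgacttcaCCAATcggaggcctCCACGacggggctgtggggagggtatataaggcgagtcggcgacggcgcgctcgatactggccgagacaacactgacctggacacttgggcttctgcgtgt
Herpud1, chr8:94386179-94386478, plus strand: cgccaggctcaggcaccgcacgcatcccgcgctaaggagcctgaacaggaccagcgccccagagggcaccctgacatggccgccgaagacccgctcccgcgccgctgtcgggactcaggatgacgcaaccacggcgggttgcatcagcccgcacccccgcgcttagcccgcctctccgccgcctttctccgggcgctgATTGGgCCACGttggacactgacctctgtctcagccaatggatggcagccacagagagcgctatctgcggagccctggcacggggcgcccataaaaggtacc
Creld2, chr15:88819396-88819695, plus strand: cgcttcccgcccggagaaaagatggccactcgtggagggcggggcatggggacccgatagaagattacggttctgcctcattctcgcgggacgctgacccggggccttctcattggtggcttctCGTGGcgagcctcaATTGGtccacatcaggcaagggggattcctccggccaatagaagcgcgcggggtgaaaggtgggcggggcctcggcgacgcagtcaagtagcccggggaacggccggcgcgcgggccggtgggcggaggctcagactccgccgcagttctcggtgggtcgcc

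In E46 labelled 100 the 9 genes did not move as a set. Hspa5, Dnajb9 and Herpud1 rose, by 1.51-, 1.67- and 1.51-fold, while Calr, Pdia6, Sdf2l1 and Creld2 fell, and Hsp90b1 and Xbp1 were not called. Thus 3 of 9 were called higher and 4 lower, where 20.3% of all genes were called higher and 19.3% lower. The median change of the 9 genes was 0.03, against 0.00 for all genes. The values of the 7 called genes did not overlap between E46 labelled 100 and E46 controls, a separation that 40.4% of all genes showed.

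Hspa5 encodes BiP, the abundant Hsp70 chaperone of the ER lumen, which also holds the sensors inactive. It lay at 12.06, 12.21, 12.20 and 12.23 in E46 labelled 100, against 11.43, 11.58, 11.65 and 11.65 in E46 controls. Every array of E46 labelled 100 was above every control, and the change was 0.60 ± 0.07 (adjusted p = 6.93e-07, limma). Dnajb9 encodes ERdj4, a J-domain partner that brings BiP to misfolded proteins and to IRE1. Its levels were 10.19, 10.36, 10.13 and 10.25 in E46 labelled 100, against 9.26, 9.54, 9.73 and 9.45 in E46 controls. The groups stood apart, with a change of 0.74 ± 0.09 (adjusted p = 8.38e-07, limma), the largest increase of the 9. Sdf2l1, a lumenal protein that works with BiP and J-domain proteins to keep clients from aggregating, went the other way. Its levels were 9.81, 9.88, 9.85 and 9.79 in E46 labelled 100, against 10.25, 10.18, 10.12 and 10.10 in E46 controls. The change was −0.33 ± 0.06 (adjusted p = 8.76e-05, limma), with all 4 serotonin arrays below the controls.

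Hsp90b1, which encodes the ER form of Hsp90 called GRP94, was at 11.54, 11.66, 11.68 and 11.65 in E46 labelled 100, against 11.42, 11.63, 11.66 and 11.71 in E46 controls. These groups overlapped, and the change of 0.03 ± 0.09 had a 95% confidence interval of −0.15 to 0.20 (adjusted p = 0.857, limma). Calr, which encodes the calcium-binding lectin chaperone calreticulin, lay at 11.62, 11.64, 11.65 and 11.62 in E46 labelled 100, against 11.67, 11.93, 12.02 and 11.95 in E46 controls. The lowest control, replicate 1, was close to the serotonin arrays, and the change was −0.26 ± 0.07 (adjusted p = 0.00375, limma).

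Pdia6 encodes a protein disulfide isomerase that also acts on IRE1. It was measured at 9.14, 9.03, 9.04 and 9.13 in E46 labelled 100, against 9.60, 9.59, 9.79 and 9.73 in E46 controls. This was the largest decrease of the 9, at −0.59 ± 0.07 (0.662-fold, adjusted p = 7.73e-07, limma), with a clear gap between the groups. Creld2 encodes an ER protein with EGF-like repeats and isomerase activity whose mRNA is a common readout of ER stress. Its levels were 10.01, 9.84, 10.01 and 10.04 in E46 labelled 100, against 10.41, 10.40, 10.55 and 10.43 in E46 controls. Every serotonin array was below every control, and the change was −0.47 ± 0.07 (adjusted p = 1.67e-05, limma).

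Herpud1 encodes a ubiquitin-like membrane protein of the complex that moves misfolded proteins out for degradation. Its levels were 11.35, 11.37, 11.54 and 11.43 in E46 labelled 100, against 10.84, 10.76, 10.81 and 10.92 in E46 controls. The change was 0.59 ± 0.07 (adjusted p = 3.87e-07, limma), and the groups did not overlap. Xbp1, the transcription factor mRNA that IRE1 splices, was at 9.68, 9.71, 9.77 and 9.77 in E46 labelled 100, against 9.44, 9.73, 9.59 and 9.65 in E46 controls. The groups overlapped, and the change was 0.13 ± 0.07 (95% confidence interval −0.02 to 0.28, adjusted p = 0.179, limma). Its probe set does not separate the spliced from the unspliced form.

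Each of the 7 calls in E46 held without any single array of these 2 groups. With the doses of the second label none of the 9 was called at 100, and the 7 calls stood at the dose of 1. Within position numbers 5, 7 and 9, where few arrays remain, 4, 4 and 0 of the 9 were called, beside 16.9%, 18.4% and 4.63% of all genes, and the 7 genes kept their directions at each number.

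**Figure D2:**
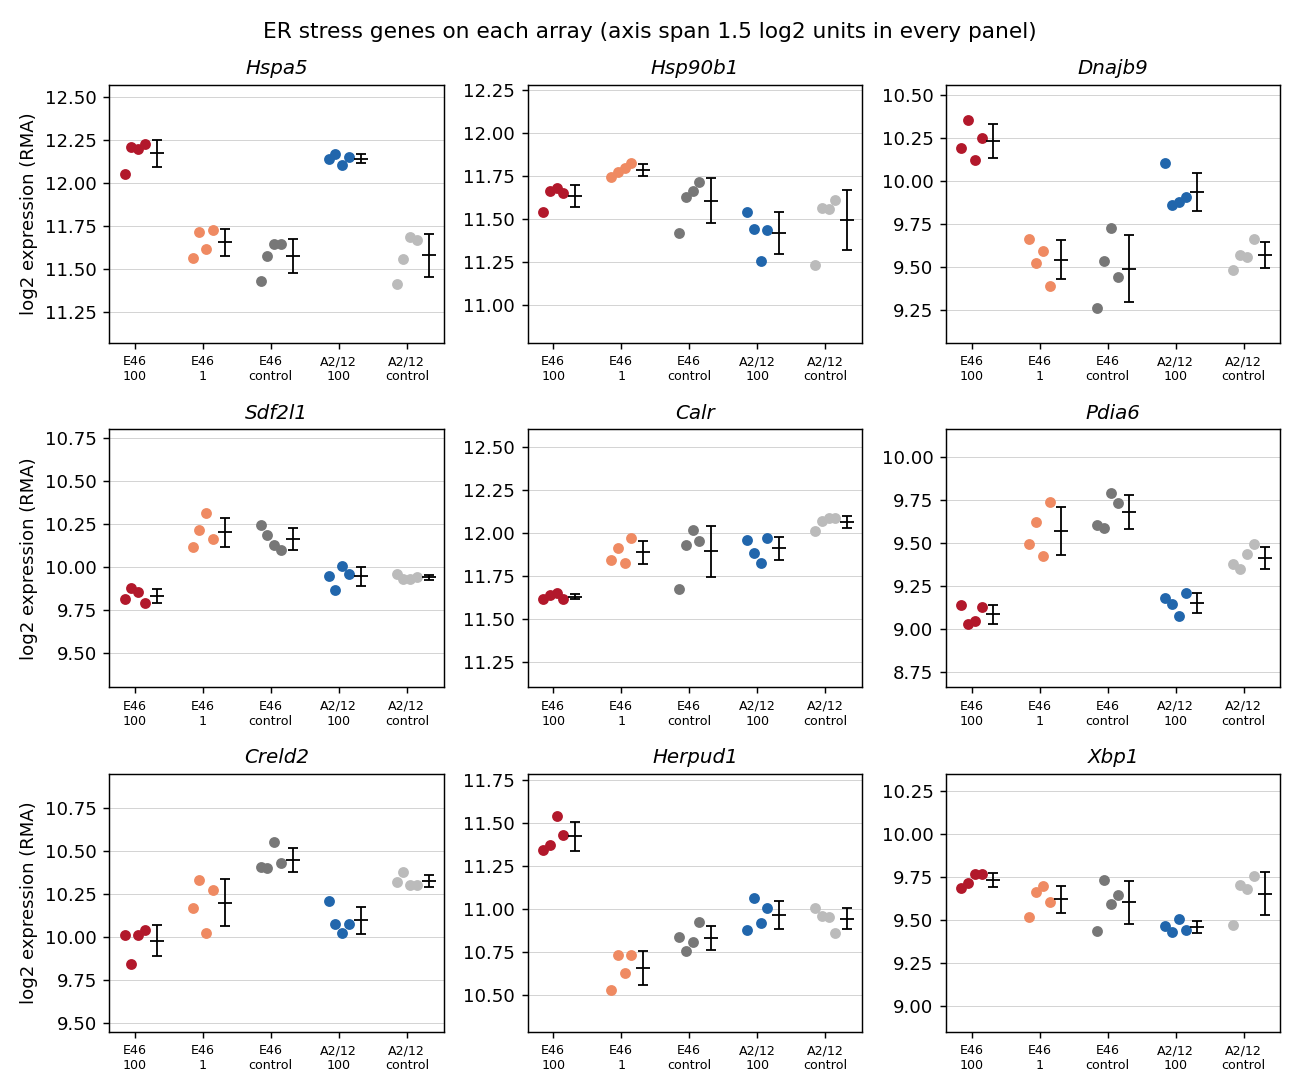
Log2 expression level of the 9 measured genes on each array (points, vertical axis), 1 panel per gene, for E46 labelled 100, E46 labelled 1, E46 controls, A2/12 labelled 100 and A2/12 controls; bars are means ± SD (n = 4). Hspa5 and Dnajb9 are above their controls at 100 in both lines, Pdia6 and Creld2 are below them in both, and Herpud1 and Sdf2l1 do not overlap their controls in E46 labelled 100 and overlap them in A2/12.

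In E46 labelled 1 none of the 9 genes was called against controls by limma, where 0.00531% of all genes were called higher and 0.00531% lower. Variance estimation with a trend and robust weights also called 0 of the 9, and 2 of them, Herpud1 and Creld2, had an unadjusted p below 0.05, beside 15.9% of all genes. Creld2 was at 10.17, 10.33, 10.02 and 10.28 in E46 labelled 1, against 10.41, 10.40, 10.55 and 10.43 in E46 controls. Those arrays did not overlap, with a difference of −0.25 ± 0.07 (adjusted p = 0.186, limma). Herpud1 was at 10.53, 10.73, 10.63 and 10.74 in E46 labelled 1, against 10.84, 10.76, 10.81 and 10.92 in E46 controls, also without overlap. Its difference was −0.17 ± 0.07 (adjusted p = 0.248, limma), opposite in sign to that at the labelled 100. Hsp90b1 was at 11.74, 11.77, 11.80 and 11.82 in E46 labelled 1, above each of the E46 controls, with a difference of 0.18 ± 0.09 (adjusted p = 0.316, limma). These 3 of the 9 had groups that did not overlap, beside 6.39% of all genes. The other 6 had differences of −0.11 to 0.08. The 95% confidence interval was −0.07 to 0.23 for Hspa5 and −0.26 to 0.04 for Pdia6.

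Set against each other, E46 labelled 100 differed from E46 labelled 1 in 7 genes. Here 3 of 9 were called higher and 4 lower, beside 23.6% and 17.8% of all genes. Herpud1 had the largest difference, 0.77 ± 0.07, followed by Dnajb9 at 0.69 ± 0.09 and Hspa5 at 0.52 ± 0.07. Pdia6 (−0.48), Sdf2l1 (−0.37), Calr (−0.26) and Creld2 (−0.22) were lower in E46 labelled 100. Creld2 lost its call without E46 labelled 100 replicate 2 (−0.18, adjusted p = 0.0744), without E46 labelled 1 replicate 2 (−0.18, 0.0628) or without E46 labelled 1 replicate 4 (−0.20, 0.05003, limma), and at position number 7 alone its difference was 0.01. This comparison shares its E46 labelled 100 arrays with that against controls.

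In A2/12 labelled 100, Hspa5 and Dnajb9 rose and Pdia6 and Creld2 fell, as they did in E46, and Xbp1 was called lower. Of the 9 genes, 2 were called higher and 3 lower, beside 24.8% and 21.1% of all genes, and their median change was −0.08. The groups of 5 of the 9 did not overlap, beside 43.3% of all genes. Hspa5 was at 12.14, 12.17, 12.11 and 12.16 in A2/12 labelled 100, against 11.41, 11.56, 11.69 and 11.67 in A2/12 controls. The groups were separate and the change was 0.56 ± 0.07 (adjusted p = 1.06e-06, limma). Dnajb9 was at 10.10, 9.86, 9.88 and 9.91 in A2/12 labelled 100, against 9.48, 9.57, 9.56 and 9.66 in A2/12 controls. Again all serotonin arrays were higher, by 0.37 ± 0.09 (adjusted p = 0.0017, limma).

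Pdia6 was at 9.18, 9.15, 9.07 and 9.21 in A2/12 labelled 100, against 9.37, 9.35, 9.43 and 9.49 in A2/12 controls. Creld2 was at 10.21, 10.08, 10.02 and 10.07 in A2/12 labelled 100, against 10.32, 10.37, 10.30 and 10.30 in A2/12 controls. Neither gene's groups overlapped, and the changes were −0.26 ± 0.07 for Pdia6 (adjusted p = 0.0048) and −0.23 ± 0.07 for Creld2 (adjusted p = 0.0117, limma). Xbp1 was at 9.47, 9.43, 9.51 and 9.44 in A2/12 labelled 100, against 9.47, 9.70, 9.68 and 9.76 in A2/12 controls. Control replicate 1 was as low as the serotonin arrays, so the groups overlapped, and the change was −0.19 ± 0.07 (adjusted p = 0.0344, limma). This call was lost without any 1 of A2/12 control replicates 2, 3 and 4 and A2/12 labelled 100 replicates 1, 2 and 4 (changes of −0.19 to −0.16, largest adjusted p = 0.113, limma) and when the line was fitted alone (adjusted p = 0.0661, limma).

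The other 4 genes were not called in A2/12. Herpud1 was at 10.88, 11.06, 10.92 and 11.01 in A2/12 labelled 100, against 11.01, 10.96, 10.95 and 10.86 in A2/12 controls. Sdf2l1 was at 9.95, 9.87, 10.00 and 9.96 in A2/12 labelled 100, against 9.96, 9.93, 9.93 and 9.94 in A2/12 controls. Both overlapped widely, with changes of 0.02 ± 0.07 for Herpud1 (95% confidence interval −0.12 to 0.16) and 0.01 ± 0.06 for Sdf2l1 (−0.11 to 0.13). Calr was at 11.96, 11.88, 11.83 and 11.97 in A2/12 labelled 100, against 12.01, 12.07, 12.09 and 12.09 in A2/12 controls, without overlap, but it missed the threshold at −0.15 ± 0.07 (adjusted p = 0.0756, limma). It was called in 6 alternatives, among them array weights, median centring and the array's upper quartile as a covariate (−0.22, adjusted p = 0.00324, limma). Hsp90b1 was at 11.54, 11.44, 11.25 and 11.43 in A2/12 labelled 100, against 11.23, 11.56, 11.56 and 11.61 in A2/12 controls, a difference of −0.08 ± 0.09 between overlapping groups. Within position numbers 5, 7 and 9, 0, 2 and 0 of the 9 genes were called, beside 22.1%, 37.5% and 9.9% of all genes, with the 5 called genes in the same direction at each number.

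The difference of the responses at 100, E46 minus A2/12, was tested directly. Of the 9 genes, 3 were called higher and 2 lower, beside 11.1% and 10.9% of all genes. Herpud1 had the largest difference: its log2 change was 0.59 in E46 and 0.02 in A2/12, where it was not called, a difference of 0.57 ± 0.10 (adjusted p = 0.000135, limma). Sdf2l1 had a log2 change of −0.33 in E46 and 0.01 in A2/12, where it was not called, a difference of −0.34 ± 0.08 (adjusted p = 0.00463, limma). The calls of these 2 genes held without any single array. Pdia6 differed by −0.33 ± 0.10 (adjusted p = 0.0205, limma), Dnajb9 by 0.37 ± 0.13 (0.0415) and Xbp1 by 0.32 ± 0.10 (0.0268). Leaving out E46 control replicate 3 ended the call of Pdia6 (−0.30, adjusted p = 0.05005, limma). Dnajb9 kept its call without 4 single arrays of 16, E46 control replicate 3, E46 labelled 100 replicate 3, A2/12 control replicate 1 or A2/12 labelled 100 replicate 1, and lost it without any other (0.29 to 0.45 in all, largest adjusted p = 0.0917, limma). Xbp1 lost its call without any 1 of E46 control replicate 1, E46 labelled 100 replicates 3 and 4, A2/12 control replicates 2, 3 and 4 and A2/12 labelled 100 replicate 2 (0.27 to 0.38 in all, largest adjusted p = 0.0618, limma). For Hspa5 the difference was 0.04 ± 0.10, with a 95% confidence interval of −0.18 to 0.25, and it was not called (adjusted p = 0.861, limma). Creld2 (−0.24), Calr (−0.11) and Hsp90b1 (0.10) were not called either. At single position numbers 0 of the 9 were called, beside 4.71%, 8.46% and 0.388% of all genes, and the 5 genes kept their directions.

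**Figure D3:**
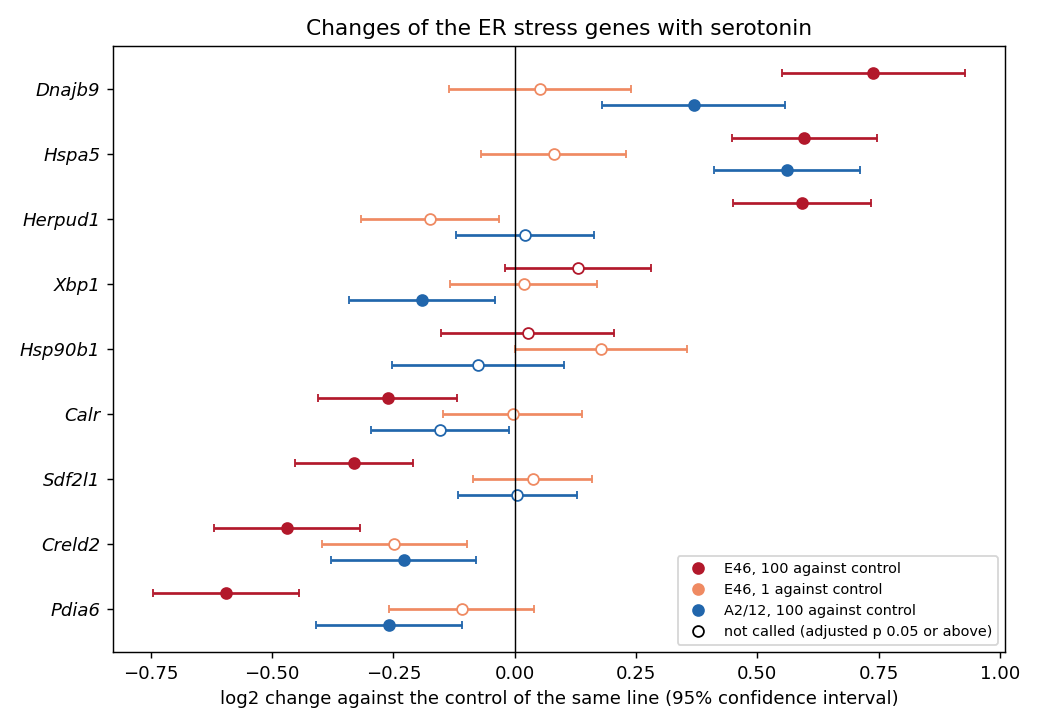
Log2 change of each of the 9 genes with its 95% confidence interval (horizontal axis) in E46 labelled 100 against controls, E46 labelled 1 against controls and A2/12 labelled 100 against controls; open symbols were not called. Hspa5 has close values in both lines at 100 (0.60 and 0.56), Herpud1 does not (0.59 and 0.02), and no gene was called in E46 labelled 1.

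Between untreated lines the differences of the 9 genes ranged from −0.17 to 0.27. Pdia6 was 0.27 ± 0.07 higher in E46 controls than in A2/12 controls (adjusted p = 0.0050, limma) and Sdf2l1 0.22 ± 0.06 higher (adjusted p = 0.0038, limma), each without overlap. Thus 2 of 9 were called higher and 0 lower, beside 21.1% and 18.1% of all genes, and 3 of the 9 had an unadjusted p below 0.05, beside 45.3% of all genes. The groups of 3 of the 9, Pdia6, Sdf2l1 and Creld2, did not overlap, beside 35.6% of all genes. The difference of Calr, −0.17, was not called (adjusted p = 0.0539, limma), with an adjusted p below 0.05 in 6 alternatives, such as array weights.

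The order of the 5 groups differed from gene to gene. For Hspa5 the order of group means was 12.17 in E46 labelled 100, 12.14 in A2/12 labelled 100, 11.66 in E46 labelled 1, 11.58 in A2/12 controls and 11.58 in E46 controls. The ranges of its neighbours overlapped except between A2/12 labelled 100 and E46 labelled 1. Pdia6 was highest in E46 controls at 9.68 ± 0.10 and lowest in E46 labelled 100 at 9.08 ± 0.06 (SD, n = 4 each), and only A2/12 labelled 100 and A2/12 controls were neighbours without overlap. Herpud1 in E46 labelled 100 stood at 11.42 ± 0.09, above all other groups, which averaged between 10.66 and 10.97 and of which E46 labelled 1 did not overlap its neighbour, E46 controls. Xbp1 stayed between 9.46 and 9.73 in group means, and the ranges of every pair of neighbours overlapped.

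Pairs of the 7 called genes were correlated over the 20 arrays, as a description. They were sorted by called direction in E46 labelled 100, on arrays among these 20, which in part fixes the signs. The 3 pairs of genes that both rose there had Pearson correlations of 0.69 to 0.89, the 6 pairs that both fell 0.21 to 0.84, and the 12 mixed pairs −0.82 to −0.49. With group means removed these ranges became −0.62 to 0.31, −0.53 to 0.66 and −0.31 to 0.71, each of which spanned 0. All of these points share arrays, normalization and controls. In each of the 5 groups 1 array held the lowest value for 5 of the 9 genes. It was replicate 1 in every group but A2/12 labelled 100, where it was replicate 3. Without 4 arrays with an upper quartile under 8.2 the 9 genes had 7 calls in E46 labelled 100 and 6 in A2/12 labelled 100. Without 1 control array per line that had high values of macrophage or intestinal genes they had 7 and 4. These arrays were E46 control replicate 3, high in intestinal genes, and A2/12 control replicate 4, high in macrophage genes. In E46 labelled 100 the share of all genes called stayed close to that of the main fit in both settings. For A2/12 labelled 100 that share is not given here. Whether its counts of 6 and 4 are particular to the 9 genes was therefore not tested.

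The gene most like each of the 9 in its pattern was taken as the one with the highest Pearson correlation over the 20 arrays, among 12747 genes above background. For Hspa5 these were Utp18 (0.988), Rhot1 (0.987), Noc3l (0.985), Stam (0.984) and Togaram1 (0.984). The closest gene was Aldh3a2 for Dnajb9 (0.953), Cilk1 for Herpud1 (0.942), Fat1 for Pdia6 (0.967) and Ap2a2 for Creld2 (0.945). It was Galnt1 for Calr (0.943), Asf1b for Sdf2l1 (0.928), Yme1l1 for Hsp90b1 (0.935) and Spg20 for Xbp1 (0.833). None of these 13 is on the lists of ER genes that follow. Each correlation was picked as the highest among 12747 genes. Group means were not removed, so these values include the differences between groups, and likeness within groups was not tested.

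The lists that follow are read beside the shares of all genes at the labelled 100, 20.3% called higher and 19.3% lower in E46, and 24.8% and 21.1% in A2/12. Other ER chaperones and co-chaperones were more often called lower than higher. Of 15 measured in the list, 2 were called higher and 9 lower in E46 labelled 100 (median −0.30), and 2 and 7 in A2/12 labelled 100 (median −0.23, or −0.13 without the 2 control arrays with high macrophage or intestinal genes). Hyou1, a large Hsp70 relative that exchanges nucleotide on BiP, rose by 0.87 ± 0.07 in E46 and 0.89 ± 0.07 in A2/12. Fkbp14, a prolyl isomerase for collagen, changed by −1.46 ± 0.12 in E46 and −1.74 ± 0.12 in A2/12, and its relatives Fkbp2 (−0.65 and −0.97) and Fkbp7 (−0.64 and −0.83) fell too. Serpinh1, the collagen chaperone HSP47, changed by −0.58 in E46 and −0.43 in A2/12. Serpinh1 and Fkbp14 act on collagen, and the means of the fibroblast and mesenchyme markers given above were lower in the same groups. Their part in these changes was not tested.

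Among the genes of disulfide bonds, both Ero1 oxidases rose and several isomerases fell. Of 17 measured, 4 were called higher and 7 lower in E46 (median −0.10), and 4 and 6 in A2/12 (median −0.13). Ero1a, the oxidase that passes oxidising power to the isomerases, rose by 1.64 ± 0.10 in E46 and 1.86 ± 0.10 in A2/12, and its relative Ero1b by 0.83 and 1.16. The isomerases P4hb (−0.58 and −0.63), Pdia5 (−0.71 and −0.43) and Txndc5 (−0.80 and −0.63) fell in E46 and A2/12, together with the ER peroxiredoxin Prdx4 (−0.83 and −0.94).

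Genes of ER-associated degradation were more often called higher than lower. Of 21 measured, 9 were called higher and 2 lower in E46 (median 0.13, or 0.05 with the array's upper quartile as a covariate), and 10 and 5 in A2/12 (median 0.17). Sel1l, the partner of the ubiquitin ligase HRD1, rose by 0.80 ± 0.08 in E46 and 0.23 ± 0.08 in A2/12, a difference of 0.57 ± 0.12 (adjusted p = 0.00113, limma). Ufd1 (0.55 and 0.74) and Nploc4 (0.44 and 0.46), the cofactors of the ATPase that pulls proteins out of the membrane, rose in E46 and A2/12, as did Ubxn4, an ER anchor of that ATPase (0.54 and 0.51). Os9, a lectin that recognises misfolded glycoproteins, fell by 0.27 in E46 and by 0.40 in A2/12 on the log2 scale.

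Genes of protein import and of N-glycosylation moved in both directions. Of 17 import and signal peptidase genes, 4 were called higher and 6 lower in E46 (median −0.06), and 3 and 7 in A2/12 (median −0.06). The translocon subunit Sec61g (−0.57 and −0.24) and the signal peptidase subunit Spcs1 (−0.43 and −0.25) fell in E46 and A2/12, while the signal recognition particle receptor subunit Srprb rose (0.32 and 0.55). Ssr4, of the translocon-associated complex, fell (−0.38 and −0.33), and its partner Ssr2 fell in E46 (−0.35) and was at −0.14 in A2/12, not called. Srp72, of the signal recognition particle, rose by 0.49 in E46 and was at 0.04 in A2/12, not called. Sec62, which aids import after translation and ER clearance, was at 0.03 in E46, not called, and at −0.69 in A2/12. Of 17 glycosylation and glycan trimming genes, 5 were called higher and 6 lower in E46 (median 0.01), and 5 and 5 in A2/12 (median −0.11). The oligosaccharyltransferase subunits Tusc3 (−0.76 and −0.94), Ostc (−0.47 and −0.21) and Ddost (−0.35 and −0.35) fell, and the mannosyltransferases Alg2 (0.36 and 0.51) and Alg12 (0.36 and 0.47) rose. Of the glucosidases that trim the glycan, Mogs rose (0.41 and 0.78), while Ganab was at 0.04 in E46, not called, and fell in A2/12 (−0.44).

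Of the sensors and their proteases, 8 were measured, with 4 called higher and 3 lower in E46 (median 0.12) and 4 and 4 in A2/12 (median 0.00). Ern1, which encodes IRE1, rose by 1.32 ± 0.08 in E46 and 1.51 ± 0.08 in A2/12, and Atf6 rose by 1.26 ± 0.10 and 1.32 ± 0.10. Their levels were 9.67 ± 0.07 for Ern1 in E46 labelled 100, against 8.35 ± 0.08 in E46 controls, and 10.57 ± 0.08 for Atf6 in E46 labelled 100, against 9.31 ± 0.17 in E46 controls (SD, n = 4 each). The relatives of ATF6 that act in secretory cells, Creb3l1 (−1.50 and −1.17) and Creb3l2 (−1.05 and −2.16), fell in E46 and A2/12. Eif2ak3, which encodes PERK and was chosen for mention after its values were seen, changed by −0.28 in E46 (adjusted p = 0.0318, limma) and −0.55 in A2/12 (adjusted p = 8.88e-05, limma).

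All 11 measured genes of the PERK branch and of ATF4 targets were called higher at the labelled 100, in E46 (median 1.69) and in A2/12 (median 1.53). The transcription factor Atf3 was at 10.17 ± 0.20 in E46 labelled 100, against 6.94 ± 0.12 in E46 controls, and at 9.90 ± 0.05 in A2/12 labelled 100, against 6.90 ± 0.29 in A2/12 controls (SD, n = 4 each). These are changes of 3.23 ± 0.11 and 3.00 ± 0.11. Ppp1r15a, which encodes the phosphatase subunit GADD34 that restores translation, rose by 2.88 and 2.54, and the pseudokinase Trib3 by 2.62 and 2.96, in E46 and A2/12. Stc2, a secreted glycoprotein, rose by 2.97 in E46 and 1.16 in A2/12, and Chac1, which breaks down glutathione, by 1.69 and 2.40. The changes of Stc2 and Chac1 differed between the lines by 1.81 ± 0.13 and −0.71 ± 0.12 (adjusted p = 2.33e-09 and 9.36e-05, limma). Ddit3, which encodes CHOP, shares its probe set with another gene and gives no value.

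In E46 labelled 1, 0 genes were called in each of these 7 lists by limma, and 7 of their 106 measured genes had an unadjusted p below 0.05, a smaller share than the 15.9% of all genes. The largest change among the 9 genes, 0.74 for Dnajb9 in E46 labelled 100, was below the median of the PERK and ATF4 list in the same comparison. The lists share arrays and controls with the 9 genes, so their values stand side by side and are no separate support for each other.

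**Figure D4:**
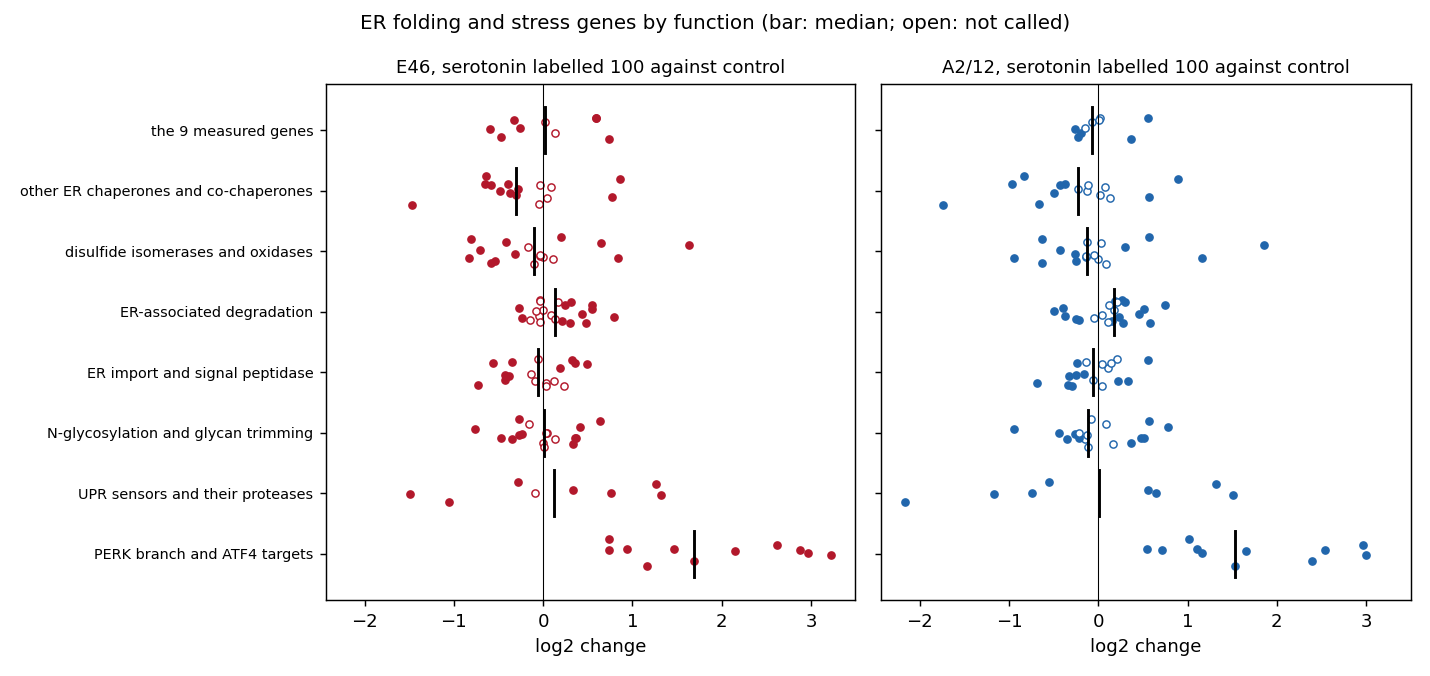
Log2 change of each measured gene of the 9 and of the 7 lists (points, horizontal axis) in E46 labelled 100 and in A2/12 labelled 100, each against its controls; the bar is the median and open points were not called. The PERK branch and ATF4 list lies wholly above 0 in both lines, while the 9 genes and the other chaperones lie on both sides of 0.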

How the data were processed

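Total RNA was measured on 20 arrays. The deposited log2 values are the authors' RMA output, per the submitters' processing notes; its version is not stated in what was used here. This method corrects background, normalizes between arrays and summarises probes, so folds of dim genes are compressed. Of 35556 probe sets, 21218 have 1 symbol, 1881 several and 12457 none, and the last 2 kinds were left out. Symbols were updated by Entrez ID (21185 matched). For 1386 genes with several probe sets the brightest over all arrays was used.

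With limma 3.58.1 (R 4.3.3), 18820 genes were fitted over the 20 arrays, each group having its own mean (median SE 0.100, 15 residual degrees of freedom, Benjamini-Hochberg adjustment). Precision is limited by how many arrays there are. The fit was tested on simulated data, and Python 3.11.15 with matplotlib 3.10.9 drew the plots. Replicate numbers were not used to pair arrays in the main fit. The mean correlation of deviations was 0.01 for same-numbered arrays (−0.55 to 0.41, 40 pairs) and 0.00 for other numbers (−0.55 to 0.60, 120 pairs).

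All 10 genes were to be described, and of each list up to 4 genes per line with the smallest adjusted p at the labelled 100. The genes, lists and tests were chosen with earlier results of these data known. Alternatives are given in the closing section.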

Additional observations from a re-analysis of the deposited data

Results flagged for a closer look

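Arrays standing apart in their group of 4 by Dixon's test at 95% were Hsp90b1 in A2/12 control replicate 1, at 11.23, and Creld2 in E46 labelled 100 replicate 2, at 9.84. These are 2 of 45 groups tested, and chance marks about 1 in 20.

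The response at the labelled 100 differed between the lines (E46 minus A2/12, log2, limma) for 5 of the 9 genes, where 11.1% of all genes were called higher and 10.9% lower. These were Herpud1 (0.57), Sdf2l1 (−0.34), Pdia6 (−0.33), Dnajb9 (0.37) and Xbp1 (0.32). The calls of Dnajb9, Xbp1 and Pdia6 were lost on leaving out 1 array, any of 12 of 16 for Dnajb9, of 7 for Xbp1 and E46 control replicate 3 for Pdia6. Of the listed genes named for their small p-values in 1 line or both, the difference was also called for Fkbp2 (0.32), Pdia5 (−0.28), Sel1l (0.57), Srp72 (0.45), Sec62 (0.71), Ganab (0.47), Creb3l2 (1.11), Stc2 (1.81) and Chac1 (−0.71).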

How the results depend on the processing

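Of the 9 genes, 7 were called in E46 labelled 100 against controls, 0 in E46 labelled 1 against controls, 7 in E46 labelled 100 against labelled 1, 5 in A2/12 labelled 100 against controls, 5 in the difference of responses and 2 between controls. Leaving out single arrays gave 7 to 7, 0 to 0, 6 to 7, 4 to 5, 3 to 5 and 2 to 3 in that order. At position number 5 alone the counts were 4, 0, 1, 0, 0 and 0, at number 7 they were 4, 0, 4, 2, 0 and 0, and at number 9 they were 0 in all 6; fewer arrays enter these fits. A further threshold of 1.5-fold left 4, 0, 2, 0, 0 and 0. In E46 labelled 100 against controls this threshold also lowered the share of all genes called, so the smaller count is not particular to the 9 genes. The shares of all genes in the main fit stand beside each comparison in the Results. With the replicate number as a replicate block the counts were 7, 0, 7, 5, 4 and 2: Dnajb9 lost its call in the difference of responses (0.37, adjusted p = 0.0624, limma), and no other call changed.

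With the doses of the second label, which swap the E46 serotonin groups by construction, 0 of the 9 were called at 100 against controls, 7 at 1 against controls and 1 in the difference of responses. Against controls Herpud1 was then at −0.17 and Sdf2l1 at 0.037 at 100, and at 0.59 and −0.33 at 1. The contrast of 100 with 1 turned to −0.52 for Hspa5, −0.69 for Dnajb9, −0.77 for Herpud1, 0.26 for Calr, 0.48 for Pdia6, 0.37 for Sdf2l1 and 0.22 for Creld2. The difference of responses turned to −0.48 for Hspa5, −0.32 for Dnajb9, −0.20 for Herpud1, 0.15 for Pdia6 and 0.0313 for Sdf2l1. At position number 7 alone the contrast of 100 with 1 was 0.0057 for Creld2, and the cause was not tested.

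Trend and robust eBayes, array weights, a position block, quantile normalization, median centring, a filter on dim genes, other choices of probe set, the upper quartile as a covariate, each line alone, and leaving out 4 arrays of low upper quartile or 2 control arrays reversed no call of the 9 and kept each count within 1.5 times. Without the 4 arrays of low upper quartile, Dnajb9 (0.29, adjusted p = 0.0898, limma) and Xbp1 (0.25, 0.0714) lost their calls in the difference of responses, and without the 2 control arrays Xbp1 lost its calls there (0.28, 0.0941) and in A2/12 (−0.16, 0.126). Creld2 in the difference of responses was called with array weights (−0.25, adjusted p = 0.0288, limma) and Hsp90b1 in the contrast of 100 with 1 with median centring (−0.18, adjusted p = 0.0494, limma). Over the scalings, the covariate and the arrays left out, no called gene of the 7 lists turned at the labelled 100 in either line, the PERK and ATF4 list kept 11 of 11 higher, and glycosylation genes called lower in A2/12 numbered up to 9 with the covariate, against 5. List medians moved more: over these settings the other chaperones in A2/12 ranged between −0.32 and −0.13, disulfide genes in A2/12 between −0.19 and −0.06, degradation genes in E46 between 0.05 and 0.13, and those of import in both lines, glycosylation in E46 and sensors in A2/12 lay on both sides of 0. The median of the 9 genes in E46 labelled 100, 0.03, ranged between −0.04 and 0.05 over these settings.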

Other observations

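The ERSE was found in 20 measured genes, of which 15 are not among the 10 described. These 15 were looked at after values had been seen, and get no test: 4 were called higher and 2 lower in E46 labelled 100, beside 20.3% and 19.3% of all genes, and 4 higher and 2 lower in A2/12 labelled 100, beside 24.8% and 21.1%. Over all 20 the counts were 5 and 5 in E46 (median −0.02) and 5 and 4 in A2/12. Calr4, a relative of calreticulin, fell in E46 (−1.02 ± 0.13) and was at −0.13 ± 0.13 in A2/12, not called, and Pan2, of an mRNA deadenylase, rose in E46 (0.53 ± 0.09) and was at 0.08 ± 0.09 in A2/12, not called. Among ER list genes with a promoter window, the ERSE was in 2 of 13 other chaperones (Canx and Dnajc3) and 1 of 15 disulfide genes (Ero1b). The ERSE was also in 2 of 18 degradation genes (Syvn1 and Derl3) and 1 of 15 glycosylation genes (Alg12). It was in 0 of 13 import genes, 0 of 7 sensor genes and 0 of 11 genes of the PERK and ATF4 list. Among all promoter windows the share was 0.119%.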
